A study of Mus musculus with 2 samples.

Results

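Forkhead genes encode transcription factors that bind DNA through a winged helix, the forkhead domain, and are named Fox with a class letter and a number. All 44 protein-coding genes of the GENCODE M21 annotation (mm10) with such a name were taken, of 21938 protein-coding genes on the placed chromosomes. The rule used names and no measured value, but it was chosen with earlier results of these data known. Of the 44 genes, 43 are described here. These fall into 18 class letters, from Foxa to Foxs, and lie on 15 autosomes and the X chromosome. The tissue was left cerebral cortex of adult female B6CASTF1/J mice aged 18 to 20 months, the first-generation cross of C57BL/6J with the CAST strain. There was 1 group, with no treatment and no edited allele in the labels, and 2 DNase-seq libraries, numbered 1 and 2 as in the labels. Each came from a tissue sample of its own, but both carry 1 donor identifier, so that the spread between them may be technical.

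Forkhead factors act as dimers or single proteins on short sites with the core TGTTTAC or close relatives, and some of them, the FOXA proteins above all, can bind sites wrapped on nucleosomes. FOXP1, FOXP2 and FOXP4 mark subsets of projection neurons and are studied for their part in speech and language circuits. The FOXO proteins sit at the end of insulin and growth factor signalling: the kinase AKT phosphorylates them and keeps them out of the nucleus, and under stress or low insulin they return and switch on genes of antioxidant defence, cell cycle arrest and protein breakdown. FOXJ1 drives the genes of motile cilia, and FOXC and FOXF proteins act in meninges, vessel walls and other mesenchyme.

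DNase I cuts DNA that nucleosomes leave free, and stretches with many cuts are called as peaks. Library 1 had 132054 peaks on its longer deposited list and library 2 had 139799. Their median signals were 0.640 and 0.641, and the typical peak was 200 bases wide. The signal is the authors' value for each peak, its normalization is not stated in the sources used here, and sequencing depth is unknown. A gene is called open here where a peak overlaps the 500 bases on either side of any of its annotated starts, its promoter signal is the strongest such peak, and it is 0 where none was listed. In bulk tissue, fewer cells with an open promoter and less cutting per cell cannot be told apart. Means are followed by the SD over both libraries (n = 2), which describes this pair only.

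Of the 43 forkhead genes, 23 were open in both libraries (53.5%), 17 in neither and 3 in 1 library. Among all protein-coding genes the shares were 63.6% in both, 32.6% in neither and 3.74% in 1 library, so that against this background the members had a smaller share open in both libraries and larger shares in neither (39.5%) and in 1 library (6.98%). By class letter, all members of classes C, I, J, K, M and O were open in both libraries, and 3 of 4 of class P. No member of classes A, B, E, H, Q, R and S was. Classes D, F, L and N were mixed, with 1 of 4, 1 of 2, 1 of 2 and 2 of 4 open in both. Of the 32 members with no start of another gene in their windows, 16 (50%) were open in both. Starts of other genes also lie in the windows of the open members Foxd2, Foxf1, Foxj2, Foxj3, Foxl2, Foxm1 and Foxn3, so their peaks may not be their own.

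**Figure D1:**
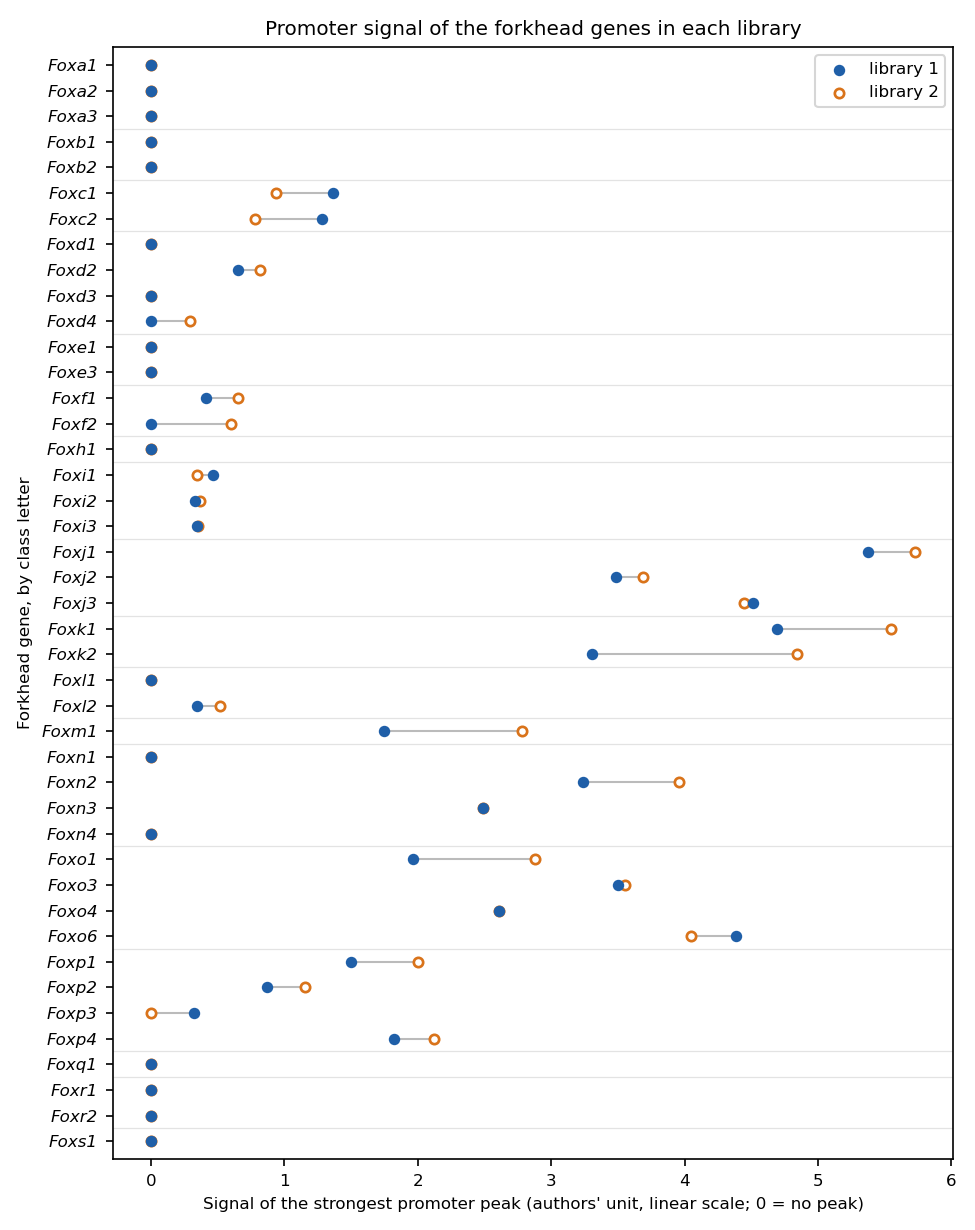
Signal of the strongest promoter peak (horizontal axis, the authors' unit, linear) of each of the 43 forkhead genes, grouped by class letter, in library 1 (filled) and library 2 (open), with 0 for no peak. Class J, K and O genes and Foxn2 lie to the right, and 17 genes lie at 0 in both libraries.

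The 3 members with the strongest promoters by mean signal were Foxj1, Foxk1 and Foxj3. Foxj1, the regulator of motile cilia (chr11:116330704-116335399, minus strand), had a promoter signal of 5.38 in library 1 and 5.73 in library 2, or 5.55 ± 0.249. Foxk1, a repressor tied to nutrient sensing, followed with 4.70 and 5.55 (5.12 ± 0.604). Foxj1 lay above Foxk1 in each library, but the ranges of these leading genes overlap, so the order between them is not fixed by this pair. Foxj3 had 4.51 and 4.45 (4.48 ± 0.0468), below Foxj1 in both libraries. The start nearest to that Foxj3 peak is one of Frg2f1, to which the peak may belong. Foxk2, the close relative of Foxk1, had 3.31 and 4.84 (4.07 ± 1.08), the widest gap between libraries of any member in signal units. Foxj2 had 3.48 and 3.69, below Foxo6 in both libraries. Among open genes of all kinds, Foxj1 stood at percentile 77.6 in library 1 and 80.1 in library 2, so that even the family's strongest promoter was not among the strongest of the genome.

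Foxj1 marks ependymal cells in the adult brain, and the list of 6 ependymal and choroid plexus markers was set beside it. Of these, 2 were open in both libraries, Dynlrb2 (4.54 ± 0.333), a dynein light chain, and Kl (0.386 ± 0.0738). Folr1 had 0.388 in library 2 only, and Ttr, Ccdc153 and Tmem212 were at 0 in both. In sum the 6 markers had a promoter signal of 4.64 and 5.61 by library, most of it from Dynlrb2 with 4.31 and 4.78. The part of ependymal cells in the Foxj1 value was not tested.

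All members of the FoxO class were open in both libraries. Foxo6, the brain-enriched member (chr4:120267079-120287349, minus strand), had 4.38 and 4.05 (4.21 ± 0.239). Foxo3, which is linked to longevity, had 3.50 and 3.55 (3.53 ± 0.0332), Foxo4 had 2.61 in both, and Foxo1 had 1.97 and 2.88 (2.42 ± 0.645). Foxo6 lay above Foxo3, Foxo4 and Foxo1 in both libraries, and the order of Foxo4 and Foxo1 changed between them. Class N held 2 open genes. Foxn2 (chr17:88440711-88490533, plus strand) had 3.24 and 3.96 (3.60 ± 0.509), and Foxn3, a repressor of cell cycle genes, had 2.49 in both. Foxn1, the thymus regulator, and Foxn4, which acts in retina and spinal cord precursors, had no promoter peak in either library.

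The Foxp genes known from forebrain neurons were open in both libraries. Foxp4 (chr17:47867133-47924645, minus strand) had 1.82 and 2.12 (1.97 ± 0.210), Foxp1 had 1.504 and 2.004 (1.75 ± 0.354), and Foxp2 had 0.871 and 1.15 (1.01 ± 0.199). The order was Foxp4, Foxp1, Foxp2 in each library, although the ranges of Foxp4 and Foxp1 overlap. Foxm1, the regulator of mitotic genes, had 1.75 and 2.78 (2.27 ± 0.730), but its window also holds a start of Rhno1, to which the peak may belong. The 5 markers of cortical excitatory neurons, Slc17a7, Tbr1, Neurod2, Neurod6 and Camk2a, were all open in both libraries with a median of 1.82 ± 0.239, a level like that of Foxp1 and Foxp4. The 6 striatal markers, set beside the Foxp genes because striatal neurons use them too, were also all open, with a median of 2.23 ± 0.192. Of the 6 thalamic markers 4 were open. The part of striatal or thalamic tissue in the Foxp values was not tested.

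Among members that act in mesenchyme, meninges and vessels, both Foxc genes were open at levels like that of Foxp2. Foxc1 (chr13:31806633-31812476, plus strand), which builds the meninges, had 1.37 and 0.937 (1.15 ± 0.305), and Foxc2 had 1.29 and 0.783 (1.03 ± 0.356). Both were higher in library 1, whereas 18 of the 23 open members were higher in library 2. Foxd2 had 0.653 and 0.820 and Foxf1 had 0.415 and 0.654. The Foxf1 values came from separate peaks. That of library 1 overlapped no peak of library 2, and that of library 2 overlapped a library 1 peak (0.388) outside the window. The leptomeningeal and mural markers beside them had 3 of 6 genes open in both libraries, with a summed signal of 3.56 in library 1 and 4.61 in library 2 most of it from Col1a1, a collagen gene, with 2.35 and 2.78, and with Col1a2 at 0. No endothelial marker of 6 was open in both. Cldn5 and Flt1 had weak peaks in library 2 only (0.314 and 0.456), and Pecam1, Cdh5, Tek and Slco1a4 were at 0 in both. The part of these cells in the Foxc values was not tested. The lowest open promoters were those of the ovary regulator Foxl2 (0.347 and 0.518) and of class I, genes of ionocytes and ectodermal appendages, with 0.470 and 0.345 for Foxi1, 0.333 and 0.370 for Foxi2 and 0.347 and 0.358 for Foxi3. These stood between percentiles 2.00 and 6.49 of open promoters, against 3.70 and 9.31 for Foxf1.

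No peak lay within 500 bases of any start of Foxa1, Foxa2 and Foxa3, which specify liver and midbrain dopamine neurons, or of Foxb1 and Foxb2, Foxd1 and the neural crest gene Foxd3. The same held for the thyroid gene Foxe1, the lens gene Foxe3, the Nodal partner Foxh1, and Foxl1, Foxn1, Foxn4, Foxq1, Foxr1, Foxr2 and Foxs1. For 14 members no base of the start windows was listed with a false discovery rate under 0.05 in either library, while 26 had a listed base in both (60.5%, against 64.4% of all genes). The rest were Foxa3, with 46 listed bases in library 1, and Foxb2 and Foxd1, with 2 and 16 in library 2. In several cases peaks stood outside the window, from 505 bases (Foxb2, library 2) to 1967 bases (Foxq1, library 2) from the nearest start. With starts widened to 2000 bases, Foxa2, Foxa3, Foxb2, Foxd4, Foxf2, Foxh1, Foxp3 and Foxq1 also had a peak in both libraries. The count then became 31 of 43, or 72.1%, against 67.8% of all genes, which puts the family above rather than below the background. The peaks so added at Foxa3, Foxf2, Foxh1 and Foxp3 lay nearest to starts of other genes, namely Sympk, Gm27516, Ppp1r16a and Flicr.

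Of the 3 genes open in 1 library, Foxf2 and Foxd4 had their peaks close to that boundary. Foxf2, a regulator of brain pericytes, had no promoter peak in library 1, where the nearest peak was 505 bases from the start with a signal of 0.476, and 0.604 in library 2. Foxd4 had 0.296 in library 2, and its nearest peak in library 1 was 617 bases away with 0.456. Foxp3, which defines regulatory T cells, had a weak peak of 0.327 in library 1 and none in library 2. A far stronger peak, 5.87 and 5.19, lay 657 bases from the nearest Foxp3 start in library 2, and the start nearest to that peak belongs to Flicr, a non-coding gene beside Foxp3. The Foxf2 call thus turns on where the window ends, since the Foxf2 peaks of both libraries overlap. The Foxd4 promoter peak of library 2 overlapped no peak of library 1. The weak Foxp3 peak of library 1 lay 331 bases from a start and overlapped no peak of library 2.

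Among forkhead genes with CpG-rich starts, 64.5% were open in both libraries, and among all such genes 94.95% were. Vertebrate promoters rich in CpG, where C is followed by G about as often as the base composition would give, are usually accessible in most tissues. The ratio of observed to expected CpG over 500 bases on either side of each gene's most 5′ end was at least 0.6 for 31 forkhead genes, and of these 20 were open in both libraries and 9 (29.0%) in neither. Of 10083 genes of all kinds at or above that ratio, 9574 were open in both and 319 (3.16%) in neither. The direction was the same with limits of 0.5 (60.0% against 93.4%) and 0.7 (76.0% against 96.7%), and all of these limits were chosen after the values were seen. Below 0.6, 3 of 12 members were open (25.0%) against 37.0% of all genes. The 9 CpG-rich genes without a peak were Foxb1, Foxb2, Foxd1, Foxd3, Foxe1, Foxe3, Foxl1, Foxn4 and Foxr1, with ratios from 0.628 to 0.819. Foxj3 is a special case, since its 5′ end has a ratio of 0.180 and no peak, and its open starts lie 2657 bases further on.

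**Figure D2:**
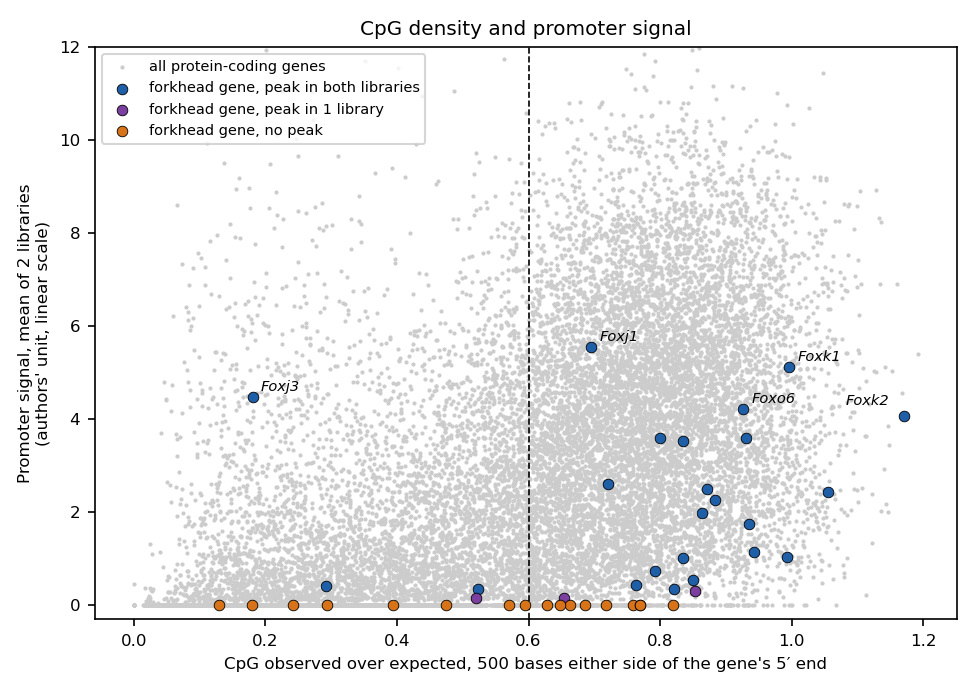
Mean promoter signal over both libraries (vertical axis, the authors' unit) against the ratio of observed to expected CpG around the most 5′ end (horizontal axis) for all protein-coding genes (grey) and the forkhead genes (coloured by the number of libraries with a peak). Orange points at 0 to the right of the dashed line at 0.6 are the 9 CpG-rich forkhead genes without a peak, and 17 genes with a mean signal above 12 are not drawn.

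A pair of promoters is shown as an example, not as typical of open and closed members. The 250 bases before the RefSeq start of Foxk2 (chr11:121259737-121259986, GRCm38.p6, plus strand), open in both libraries, hold 48 CpG, and those of Foxd3 (chr4:99656049-99656298, plus strand), whose nearest peaks were 55258 and 55239 bases away, hold 21. Capitals mark CpG, and both stretches lie outside annotated exons.
Foxk2 promoter: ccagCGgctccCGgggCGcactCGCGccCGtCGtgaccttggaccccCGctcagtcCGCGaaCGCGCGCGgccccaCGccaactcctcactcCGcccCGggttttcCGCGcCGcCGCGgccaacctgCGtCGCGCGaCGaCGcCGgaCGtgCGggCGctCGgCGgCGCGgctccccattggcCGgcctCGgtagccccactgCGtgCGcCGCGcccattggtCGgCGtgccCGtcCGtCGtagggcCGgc
Foxd3 promoter: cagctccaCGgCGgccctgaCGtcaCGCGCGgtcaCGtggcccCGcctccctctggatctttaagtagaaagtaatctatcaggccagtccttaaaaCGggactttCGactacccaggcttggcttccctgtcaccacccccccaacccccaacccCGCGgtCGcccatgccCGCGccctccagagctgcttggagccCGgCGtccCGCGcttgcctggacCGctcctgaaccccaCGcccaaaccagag
Over the 1001 bases used for the ratio, Foxk2 had 1.17 and Foxd3 had 0.819, both far above the median of 0.552 for all genes. Foxk2 had the highest ratio of all members, and Foxd3 the highest of the 17 without a peak. Members open in both libraries ranged from 0.180 to 1.17 with a median of 0.850, so the ratio alone does not separate open from closed members. CpG are spread over the whole Foxk2 stretch, whereas the Foxd3 stretch holds a run without CpG in its middle.

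Footprints, short protected stretches inside accessible DNA that mark bound proteins, were found within 500 bases of a start in both libraries for 19 members, or 44.2%, against 61.5% of all genes. These were 19 of the 23 open members (82.6%), against 96.7% of all open genes. The 4 open members without footprints in both libraries were Foxf1, Foxi1, Foxi2 and Foxi3, all with weak promoter peaks. In each of the 19, at least 1 footprint overlapped a footprint of the other library. Members with at least 5 in both libraries were Foxj1 (5 and 7), Foxj2 (9 and 8), Foxj3 (9 and 6), Foxk1 (6 and 6), Foxk2 (8 and 8), Foxn3 (8 and 6), Foxo1 (5 and 11), Foxp1 (20 and 36), Foxp2 (5 and 9) and Foxp4 (10 and 10). Foxp1 has 13 separate start windows covering 14237 bases, so its count is not comparable with that of a gene with a single start.

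Forkhead sites themselves were not found in these footprints. The core TGTTTAC, searched on both strands, occurred in the promoter windows of 8 members (18.6%) and of 23.7% of all genes, whose windows differ in length. Over the 1001 bases around the most 5′ end, which are of equal length, it occurred in 9.30% of members and 9.55% of genes. No member had such a match inside a footprint of both libraries, which was also rare among all genes (8 genes, or 0.0365%). No match lay in a footprint of either library alone. The variant TGTTTGC lay in a footprint of Foxp4 in library 1 only. These counts describe letters in a window and do not bear on where forkhead proteins were bound.

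Other consensus letters did occur in shared footprints. The GC box GGGCGG lay in a promoter footprint of both libraries in 8 members, Foxd2, Foxj1, Foxj2, Foxj3, Foxk1, Foxn2, Foxo1 and Foxo3, against 29.4% of all genes. It was found in 90.7% of the 1001-base windows of members and 60.4% of those of all genes. The CCAAT letters bound by the NFY complex lay in footprints of both libraries at Foxk2, Foxo1 and Foxm1 (5.67% of all genes), and were found in 60.5% of members' windows against 70.7% of all. An E-box CACGTG lay in a footprint at Foxm1 and the neuronal E-box CAGATGG at Foxo4. No match of the CRE, ETS, NRF1, YY1, AP-1 or CTCF letters lay in a footprint of both libraries at any member, and among all genes such matches were also uncommon, from 0.150% for AP-1 to 5.37% for CTCF.

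The first pair of sequences show the shared footprints nearest to a start, with only the bases where footprints of both libraries overlap in capitals. These lie at Foxk2 32 bases before the start (chr11:121259940-121259975, plus strand, outside exons) and at Foxj3 11 bases before one (chr4:119539660-119539688, plus strand, in an annotated Foxj3 exon).
Foxk2 footprint: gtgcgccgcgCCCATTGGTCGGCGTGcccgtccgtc
Foxj3 footprint: tagttcCGGGTGCGCGGCCCCGGatgttg
In the Foxk2 footprint the capitals hold ATTGG, the reverse complement of CCAAT, and those of the Foxj3 footprint hold none of the letters searched. The following are shown because they carry the letters found at several open members, and have the consensus match in capitals, as GGGCGG or CCGCCC for the GC box and ATTGG for NFY. They lie outside exons at chr10:42276763-42276788 (Foxo3, minus strand), chr4:114908943-114908968 (Foxd2, minus strand), chr6:122826387-122826412 and chr6:122826468-122826493 (Foxj2, plus strand), and chr3:52268304-52268328 (Foxo1, plus strand).
Foxo3 GC box: ccctccccctGGGCGGggacccgccc
Foxd2 GC box: tccctgtcctCCGCCCcctccccgcc
Foxj2 GC box, first: catcaggcgtGGGCGGaatcgaagct
Foxj2 GC box, second: gggaggagaaGGGCGGggaaggggag
Foxo1 NFY: tcgcgcgtccATTGGccgcgcagcc
All are read on the strand of the gene.

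Peak counts over the gene and 10 kb on either side were compared between libraries, and the members were split in direction. Of the 43 members, 16 had more peaks in library 2, 14 fewer and 13 the same number. Foxp1 had 43 and 54, an excess that 167 genes reached, and Foxn3 had 32 and 25, a deficit that 88 genes reached. Foxc1 had 2 and 7. Among open members the median log2 ratio of promoter signal, library 2 over library 1, was 0.15 with an SD of 0.37, close to 0.11 and 0.28 for all open genes, and none of the 23 differed by more than 2-fold, as did 0.537% of all open genes.

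Markers of cortical excitatory neurons are given beside Foxp1, which had more peaks in library 2. All 5 of that list had more there, 45 in library 1 and 92 in library 2 in sum, with 8.81% and 19.1% of bases over the median locus listed under the false discovery rate of 0.05. The striatal list had more in 1 of 6 genes (39 and 38 peaks) and the thalamic one in 5 of 6 (41 and 55). A list of 6 hippocampal markers had more in 4 (24 and 35 peaks). Across all genes 8104 had more peaks in library 2 and 5409 fewer, and library 2 had more peaks in all. The part of cell makeup or depth in the Foxp1 counts was not tested.

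**Figure D3:**
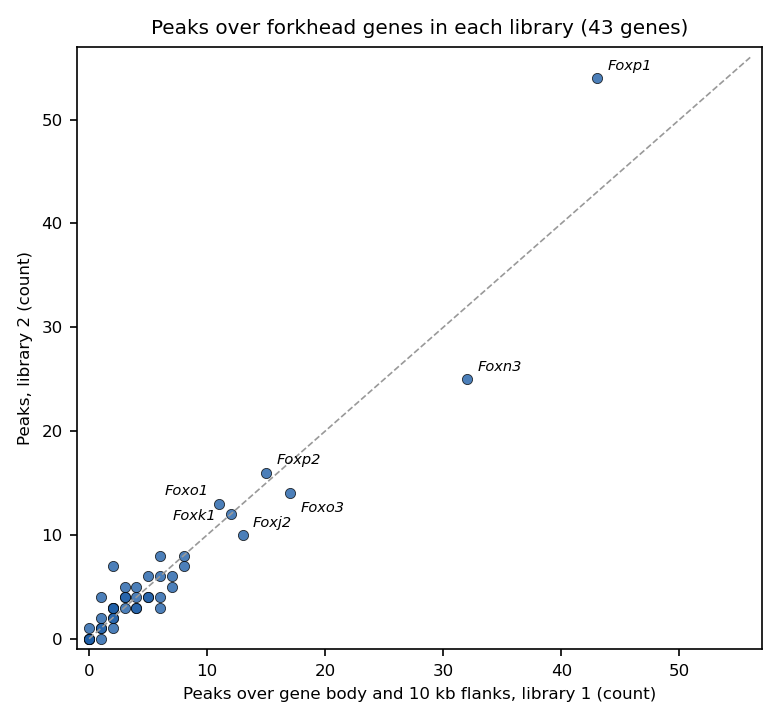
Number of peaks over the gene body and 10 kb on either side in library 1 (horizontal axis) and library 2 (vertical axis) for each of the 43 forkhead genes, with equal counts on the dashed line. Foxp1, the gene with most peaks, lies above the line at 43 and 54, and Foxn3 below it at 32 and 25.

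Peak counts over forkhead loci were ranked against genes of like span. The median percentile among the 200 genes of nearest span was 60.5 in library 1 and 62.5 in library 2, against 49.8 for all genes in both. The highest were Foxj2 (95.1, mean over libraries), Foxk1 (88.9), Foxo6 (88.3), Foxh1 (93.3 and 80.8 by library) and Foxp1 (86.5), and the lowest Foxr1 (10.3), Foxe1 (12.1) and Foxb1 (13.4), all of which had 0 peaks in both libraries, as had Foxd3. With flanks of 50 kb the median percentile was 54.4 and on the shorter lists 50.1, near that of all genes. A gene's rank says little about its own regulation where neighbours lie in the flank: the strongest peaks over Foxh1, a gene with a closed promoter, were at the promoters of Kifc2 (5.90 and 6.28) and Ppp1r16a (4.29 and 5.74). Those over Foxj2 were at Gm5112 (6.29 and 6.01), over Foxm1 at Tulp3 (5.996 and 6.037), over Foxa3 at Sympk (5.49 and 4.88) and over Foxc2 at Mthfsd (8.05 and 8.60). Foxd2 and Foxe3, and Foxc2 and Foxl1, lie so close that they share flanking sequence.

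The longest genes differed in the number of peaks along them. Foxp1 spans 597384 bases and Foxp2 540629. Foxp1 had 43 and 54 peaks and stood at percentiles 81.3 and 91.8 among genes of like span, and Foxp2 had 15 and 16 peaks and stood at 16.5 and 16.3. Foxn3, with 373505 bases, had 32 and 25 peaks at percentiles of 80.8 and 54.5. Of the 13 start windows of Foxp1, 6 were open in both libraries: those of the first starts (1.504 and 2.004, then 0.912 and 1.49), and 4 inside the gene with mean signals from 0.472 to 0.995. Foxp2 had its main window open and, of 6 others, 1 in both libraries (0.436 and 0.333) and 1 in library 2 only (0.210). In Foxn3 the most 5′ window had 1.29 and 2.03, and an internal one 169785 bases on, used by protein-coding transcripts, had 2.49 in both. Foxp4 had 1.67 and 2.05 at its first window and 1.82 and 2.12 at its last, 45692 bases on. That last Foxp4 window, like the first window of Foxp1, holds no start of a protein-coding transcript. Foxj2, like Foxp4, had its stronger peak at a later window, the second. In Foxk2, Foxm1 and Foxo3 the first window alone was open.

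**Figure D4:**
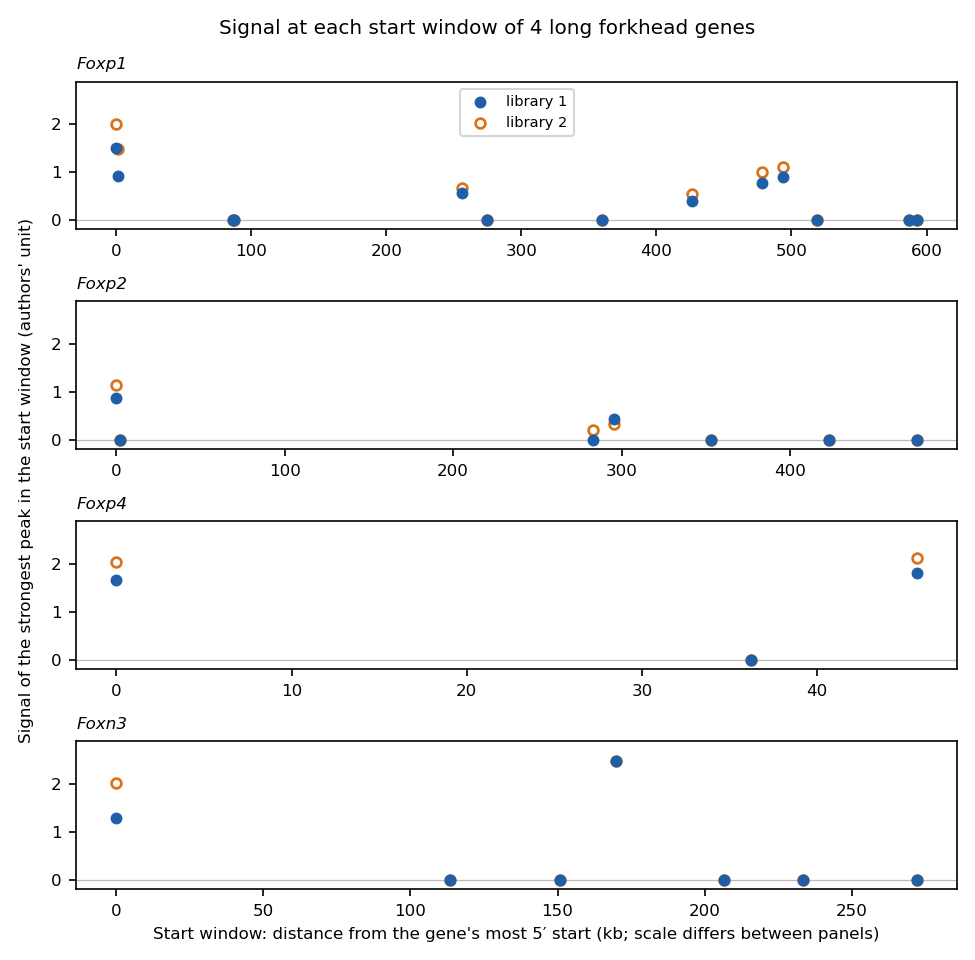
Signal of the strongest peak in each separate start window (vertical axis, the authors' unit) by its distance from the gene's most 5′ start (horizontal axis, kb, scaled per panel) for Foxp1, Foxp2, Foxp4 and Foxn3 in library 1 (filled) and library 2 (open). Foxp1 has 6 open windows, and in Foxn3 and Foxp4 an internal window matches or exceeds the first.

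The strongest peaks over Foxo3 and Foxn3 lay outside the promoter windows. At Foxo3 a peak about 1 kb upstream had 9.64 in library 1 and 7.51 in library 2, and one beside it had 4.17 and 4.25, all above the 3.50 and 3.55 of the promoter itself. In an intron of Foxn3, 171441 bases from the 5′ end, a peak had 6.79 and 7.64 and lay near the internal start. Both peaks held footprints in both libraries. They are shown as the strongest shared peaks of library 1 in a member's own introns or outside genes. Each exceeded its gene's promoter in both libraries. Among members open in both libraries, shared peaks of these kinds also did so at Foxc1, Foxi1, Foxi2, Foxp1 and Foxp4. The Foxo3 peak is chr10:42277621-42277900 and the Foxn3 peak chr12:99392041-99392240 (mm10), each read on the minus strand, that of the gene, with the bases lying in footprints of both libraries in capitals.
Foxo3 upstream peak: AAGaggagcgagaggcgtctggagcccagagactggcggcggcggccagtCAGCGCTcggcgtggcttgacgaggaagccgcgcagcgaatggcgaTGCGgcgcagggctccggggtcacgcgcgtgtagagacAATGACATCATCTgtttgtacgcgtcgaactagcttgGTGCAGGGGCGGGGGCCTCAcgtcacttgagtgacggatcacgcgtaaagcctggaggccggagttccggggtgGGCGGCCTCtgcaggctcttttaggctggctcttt
Foxn3 intronic peak: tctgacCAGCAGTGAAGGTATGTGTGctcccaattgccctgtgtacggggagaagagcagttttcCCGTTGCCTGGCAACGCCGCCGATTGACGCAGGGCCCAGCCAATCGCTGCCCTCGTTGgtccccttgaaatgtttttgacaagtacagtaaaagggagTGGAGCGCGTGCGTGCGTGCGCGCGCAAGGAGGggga
Of the Foxo3 peak 56 of 280 bases lay in footprints of both libraries, and of the Foxn3 peak 111 of 200.

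Counting each peak once, 258 peaks of library 1 and 265 of library 2 lay over forkhead loci. Of those of library 1, 202 (78.3%) overlapped a peak of library 2, against 77.8% of all peaks. Of those of library 2, 196 (74.0%) overlapped one of library 1, against 73.2% of all. By position, 107 of the 258 and 113 of the 265 lay in the gene's own introns and 47 in each library at its own starts. Peaks at own starts were shared in 89.4% and 87.2% of cases and those in own introns in 72.9% and 68.1%. The core TGTTTAC occurred 9 times in the locus peaks of library 1 and 10 times in those of library 2, or 0.162 and 0.173 times per kilobase, against 0.107 and 0.0966 per kilobase in all peaks. These few matches lay at Foxk1, Foxn3, Foxo1, Foxo3, Foxo4, Foxp1 and Foxp4, and none lay in a footprint, as did 3.53% and 4.04% of all matches.

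Nearly all genes listed for the pathway that controls FoxO proteins and for FoxO targets were open, a share near that of CpG-rich genes at large. Of all protein-coding genes 63.6% were open in both libraries, and of those with CpG-rich starts 94.95%. Both lists were chosen with earlier results of these data known. All 17 genes of insulin, phosphoinositide 3-kinase and AKT signalling and FoxO regulation had a promoter peak in both libraries, with a median signal of 4.63 ± 0.194. The highest was Ywhaz (7.95 ± 0.0633), a 14-3-3 protein that holds phosphorylated FOXO in the cytoplasm, and the lowest Pik3ca (1.06 ± 0.393), a catalytic kinase subunit. The insulin receptor gene Insr had 4.34 and 5.13. Akt1 had 1.46 and 2.00, lower than Akt2 with 4.59 and 3.71 in both libraries. Of 18 known FoxO targets 17 were open, with a median of 3.81 ± 0.208. Sod2, the mitochondrial superoxide dismutase, was highest at 7.84 ± 0.139, and Trim63, a muscle ubiquitin ligase, had no promoter peak. For comparison, the median over all open genes was 3.13 in library 1 and 3.47 in library 2, and over the open forkhead genes 1.82 and 2.49. The FoxO genes themselves, from 2.42 to 4.21, thus lay on either side of the median of all open genes and all below the median of their regulators.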

How the data were processed

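DNase-seq of mouse left cortex gave 2 libraries. Both peak lists, the footprints and the per-base tables of each library are on mm10 and were made per library, per the file headers of the deposited readme texts. The signal of each peak is as deposited by the authors, who called peaks on each library's own alignments, with no stated normalization. The sources used here give no aligner, peak caller or handling of CAST reads. Per-base false discovery rates (q-values) were deposited by the authors for bases under 0.05 only. Every line of the deposited footprint lists holds the q-value 0.01.

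Promoters were all annotated starts ± 500 bases in GENCODE M21, and loci were gene bodies with 10 kb on either side, ranked as a percentile among the 200 genes of nearest span. Peaks or footprints overlapping by at least 1 base were shared. Consensus letters were searched on both strands of the mm10 genome and counted in a footprint by their middle base. RefSeq promoters (GRCm38.p6) matched 28 of 43 members. There was no test, since there is 1 group, and depth is unknown. Members, gene lists and motifs were chosen with earlier results of these data known, and the CpG limit and the markers set beside Foxp1 were chosen after their values were seen.

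Named members follow a rule: the member of highest promoter signal per class letter, those open in 1 library, the 5 highest and 3 lowest by locus percentile, and those with at least 5 promoter footprints in both libraries. Other members named were chosen after their values were seen. Some items that the rules take are not reported here and enter no value for the family or the lists. Peak search, sharing and motif search were tested on simulated data, where 200 of 200 planted promoter peaks and 520 of 520 planted motifs were found. Tools were Python 3.11.15, pandas 2.3.3, numpy 2.4.6, scipy 1.17.1, matplotlib 3.10.9 and pysam 0.24.0.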

Additional observations from a re-analysis of the deposited data

How the results depend on the processing

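The count of 23 forkhead genes open in both libraries ranged from 18 on the shorter peak list, with 250 bases or with peaks at or above the median signal, to 31 with a promoter window of 2000 bases. The share of all protein-coding genes moved less, from 58.0% to 67.8%, so that 72.1% of the members lay above it with 2000 bases and 41.9% below its 59.5% on the shorter list. The median promoter signal of 0.352 went to 0 on the shorter list, with 250 bases and with the stronger peaks, to 0.739 with 2000 bases, and to 0.347 and 0.370 in either library alone. The median locus percentile of 64.9 went to 63.4 without flanks, 54.4 with flanks of 50 kb, 50.1 on the shorter list and 48.4 with the stronger peaks, and to 60.5 and 62.5 in either library alone. Shared peaks at forkhead loci went from 78.3% to 59.7% in library 1 and from 74.0% to 58.9% in library 2 where an overlap of 50% of both peaks was required. The 34 open genes of the FoxO signalling and target lists went to 28 with only the most 5′ end of each gene. With that setting 58.0% of all genes were open, and under the other settings the lists had 33 or 34 open. The median share of window bases listed, 16.1%, went to 6.15% under 0.005 and 0.949% under 0.001, and to 9.18% and 14.3% in either library alone. Of 58 alternatives in all, 42 moved a result by less than the spread or limit set for it, among them the 2000-base count, although it turned the order of members and all genes. The cause of these moves was not tested. With 2 libraries and unknown depth, an absent peak is not evidence of closed chromatin in every cell.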
